A study of Mus musculus with 26 samples.

Results

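The 10 genes described here encode SR splicing factors of the mouse: Srsf1, Srsf2, Srsf3, Srsf4, Srsf5, Srsf6, Srsf7, Srsf9, Srsf10 and Srsf11. They were chosen by name from a table of 55291 genes, with earlier results of these data known. All 10 were among the 20953 genes that passed the filter on low counts. RNA was sequenced from R1 mouse embryonic stem cells (mESCs), a line grown from an early embryo and kept in medium with leukemia inhibitory factor on gelatin. There were 26 libraries in 13 groups, with 2 libraries per group, and the study asked how the transcription factor Dux and a super-enhancer take part in moving these cells towards a totipotency-like state.

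Of the wild-type groups, ESC was untreated, DMSO received the solvent, PlaB received 4 nM pladienolide B for 4 days, and RA received 0.53 µM retinoic acid for 48 hours. Dux KD PlaB and Dux KD RA were the same treatments in cells with Dux knocked down by short hairpin RNA. SE KO PlaB and SE KO RA were the same treatments in cells that had lost the super-enhancer at the Tdpoz gene cluster through CRISPR-Cas9. Dux OE, Dux R70A OE and Zscan4 OE carried a transgene for Dux, a Dux mutant or Zscan4 and received 4 µg/mL doxycycline for 24 hours. SE KO Dux OE combined the deletion with the Dux transgene under the same doxycycline treatment. Dux KD Zscan4 OE combined the knockdown with the Zscan4 transgene, but its labels name no treatment and no time. The labels of DMSO name no time either. The genotype field of SE KO RA replicate 1 reads wild type while its title reads SE KO, and it was grouped by its title. The number of clones behind each modified line, and whether the 2 libraries of a group came from separate cultures, are not given in the sources used here, so the p-values measure the spread between these libraries, which may be technical.

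SR proteins bind exonic sequences of a pre-mRNA through RNA recognition motifs, and their domains rich in arginine and serine help recruit the spliceosome to nearby splice sites. Many of them control their own mRNA through a poison exon or a retained intron, which sends the transcript to nonsense-mediated decay (NMD). Pladienolide B binds the SF3B complex, the part of the U2 snRNP that recognises the branch point, and so slows splicing in general. At low doses it moves mESCs towards the totipotency-like state, in which genes of the 2-cell embryo such as Dux and the Zscan4 cluster are switched on.

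The 250 bases upstream of the annotated start are shown for Srsf1, Srsf2 and Srsf9, which had the lowest levels in PlaB relative to DMSO, and for Srsf6, which was higher. All 10 members matched the RefSeq promoter table (GRCm38.p6), and sequences are written 5′ to 3′ on the strand of the gene. Capitals mark matches to the GC box (GGGCGG), the CCAAT box (CCAAT), the TATA box (TATAAA) and the ETS site (CGGAAG), searched on both strands.
Srsf1, chr11:88047123-88047372, plus strand: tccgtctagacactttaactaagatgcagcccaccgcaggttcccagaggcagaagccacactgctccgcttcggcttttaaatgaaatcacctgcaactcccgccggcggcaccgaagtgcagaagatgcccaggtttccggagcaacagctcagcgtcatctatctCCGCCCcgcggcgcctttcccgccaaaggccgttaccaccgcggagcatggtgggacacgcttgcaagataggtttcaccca
Srsf2, chr11:116853095-116853344, minus strand: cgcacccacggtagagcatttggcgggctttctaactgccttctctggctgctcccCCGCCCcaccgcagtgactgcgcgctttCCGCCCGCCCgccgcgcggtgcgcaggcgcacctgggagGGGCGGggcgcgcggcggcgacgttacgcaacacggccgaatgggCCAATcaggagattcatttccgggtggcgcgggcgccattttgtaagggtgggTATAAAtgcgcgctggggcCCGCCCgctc
Srsf9, chr5:115326927-115327176, plus strand: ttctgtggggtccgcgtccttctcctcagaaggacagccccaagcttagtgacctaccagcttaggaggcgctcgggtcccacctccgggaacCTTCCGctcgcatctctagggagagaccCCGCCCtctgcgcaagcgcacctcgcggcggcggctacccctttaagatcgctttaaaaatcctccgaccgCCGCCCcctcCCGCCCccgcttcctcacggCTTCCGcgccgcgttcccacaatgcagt
Srsf6, chr2:162931258-162931507, plus strand: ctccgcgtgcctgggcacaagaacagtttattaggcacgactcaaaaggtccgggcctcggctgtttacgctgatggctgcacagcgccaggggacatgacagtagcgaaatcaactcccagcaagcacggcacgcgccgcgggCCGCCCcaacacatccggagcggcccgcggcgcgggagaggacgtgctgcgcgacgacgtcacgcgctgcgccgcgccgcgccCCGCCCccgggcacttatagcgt

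The GC box was found in the windows of 9 of the 10 members, Srsf3 being the exception, and in 32.9% of the 27025 promoters in the table. The ETS site was found in 5 members against 13.8% of promoters, the CCAAT box in 3 against 34.5%, and the TATA box in 2, Srsf2 and Srsf3, against 13%. No member held the MYC E-box CACGTG (6.05% of promoters) or the cAMP response element TGACGTCA (1.62%). Adjacent or overlapping matches, as in Srsf2, share a run of capitals. The 4 windows were 58.8% (Srsf1), 69.6% (Srsf2), 65.2% (Srsf9) and 68.4% (Srsf6) GC, and the median over all promoters was 52%. The GC box was thus present in the windows of Srsf1, Srsf2 and Srsf9 and also in that of Srsf6, and nothing is drawn from these matches about any factor.

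Library totals ran from 14401452 to 39402840 counts, with a median of 18276934, and the members' counts lay between 112 and 28484 in every library, far above the 3 counts taken as the detection floor. Levels are given as CPM, the share of a library's scaled total that a gene takes. Across groups the members took 0.158% to 0.393% of all counts of a library. As a check of the labels, Duxf3, the gene for Dux, had 191 and 181 counts in PlaB, 1 and 0 in Dux KD PlaB, 49 and 59 in RA, and 16 and 6 in Dux KD RA. It had 55 and 48 counts in Dux OE and 0 and 0 in the libraries labelled Dux R70A OE, so the table gives no check of the mutant transgene. Zscan4c stood at 102 ± 2.16 CPM (SD, n = 2) in Zscan4 OE, at 5.93 ± 0.284 in ESC and at 0.954 ± 0.248 in the libraries labelled Dux KD Zscan4 OE, which is below the untreated level. The 2 libraries of SE KO PlaB and of Dux KD Zscan4 OE differed more from each other than those of the other groups did, with a chi-square per degree of freedom of 30.2 and 26.1 against 1.55 to 9.81.

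PlaB against DMSO compared the level of each SR gene after 4 days of the splicing inhibitor with that in the solvent. As the labels of DMSO name no time, treatment and time in culture cannot be told apart here or in RA against DMSO. Of the 10 members, 6 were lower and 3 higher, and Srsf10 did not pass. Genes were tested with the quasi-likelihood F-test of edgeR, p-values were adjusted by the Benjamini-Hochberg method over all 20953 genes, and a gene passed at an adjusted p under 0.05. Of all genes tested, 35.4% were lower, 41.7% higher and 77.1% changed in either direction, and the members' calls are to be read against these shares. The member median was -0.56 on the log2 scale against 0.22 for all genes. Srsf1, Srsf2, Srsf9 and Srsf4 were lower by more than 2-fold, as were 26.6% of all genes, while 0 members and 32.3% of all genes were higher by that much.

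Srsf1, the founding member of the family (SF2/ASF), which acts in constitutive and regulated splicing, had 765 and 745 CPM in DMSO and 32.5 and 40.5 CPM in PlaB. Both PlaB libraries lay far below both DMSO libraries. The level fell by 4.37 on the log2 scale (SE 0.0979, edgeR adjusted p = 1.91e-23), which is 20.7-fold lower, and 2.16% of the genes tested had a lower fold change. Srsf2 (SC35), the usual marker protein of nuclear speckles, had 362 and 352 CPM in DMSO and 24.8 and 34.9 CPM in PlaB. It was 11.9-fold lower (log2 fold change -3.58, SE 0.103, edgeR adjusted p = 2.31e-21). Srsf9, a small member related to Srsf1, had 67.1 and 67.3 CPM in DMSO and 6.73 and 5.08 CPM in PlaB. It was 11.4-fold lower (log2 fold change -3.51, SE 0.123, edgeR adjusted p = 1.28e-19). For each of these 3 genes the groups were apart by many times the distance between replicates.

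Srsf4 (SRp75), the member with the longest tail of arginine and serine, had 30.4 and 25.99 CPM in DMSO and 10.5 and 13.9 CPM in PlaB, and was 2.3-fold lower (edgeR adjusted p = 9.81e-10). Srsf7 (9G8), which also takes part in mRNA export, had 407 and 390 CPM in DMSO and 212 and 222 CPM in PlaB (log2 fold change -0.88, edgeR adjusted p = 1.15e-11). Srsf3 (SRp20), its close relative and likewise an export adaptor, had 545 and 527 CPM in DMSO and 435 and 474 CPM in PlaB, a small step with no overlap (log2 fold change -0.24, edgeR adjusted p = 0.00673). The Srsf3 call depended on the scaling: the log2 fold change was -0.09 (adjusted p = 0.318) with RLE normalization and 0.02 with library size only. It was also lost without PlaB replicate 1 (adjusted p = 0.0855) and without DMSO replicate 1 (adjusted p = 0.0506).

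Srsf6 (SRp55) was the member that rose most. It had 413 and 406 CPM in DMSO and 613 and 605 CPM in PlaB, so the groups did not overlap (log2 fold change 0.57, SE 0.0698, edgeR adjusted p = 3.26e-08). Srsf5 (SRp40) had 394 and 385 CPM in DMSO and 470 and 530 CPM in PlaB (log2 fold change 0.36, adjusted p = 0.0041), and lost its call without PlaB replicate 2 (adjusted p = 0.0666). Srsf11, a relative that binds the U2 auxiliary factor, had 130 and 138 CPM in DMSO and 181 and 166 CPM in PlaB (log2 fold change 0.37, adjusted p = 0.000559). Srsf5 and Srsf11 also failed without the filter on low counts (adjusted p = 0.0586 and 0.0744). Srsf10, which acts as a splicing repressor when dephosphorylated, had 345 and 326 CPM in DMSO and 374 and 415 CPM in PlaB, with a log2 fold change of 0.23 (adjusted p = 0.145). The whole table shifted in the same direction as these 4 genes. The median difference of all genes between PlaB and DMSO was 0.203 with the TMM scaling used here, 0.334 with RLE and 0.429 with library size only. Against the untreated ESC group instead of DMSO, the log2 fold changes of Srsf6 and Srsf11 were -0.01 and -0.01, and that of Srsf5 was 0.19 (adjusted p = 0.122).

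**Figure D1:**
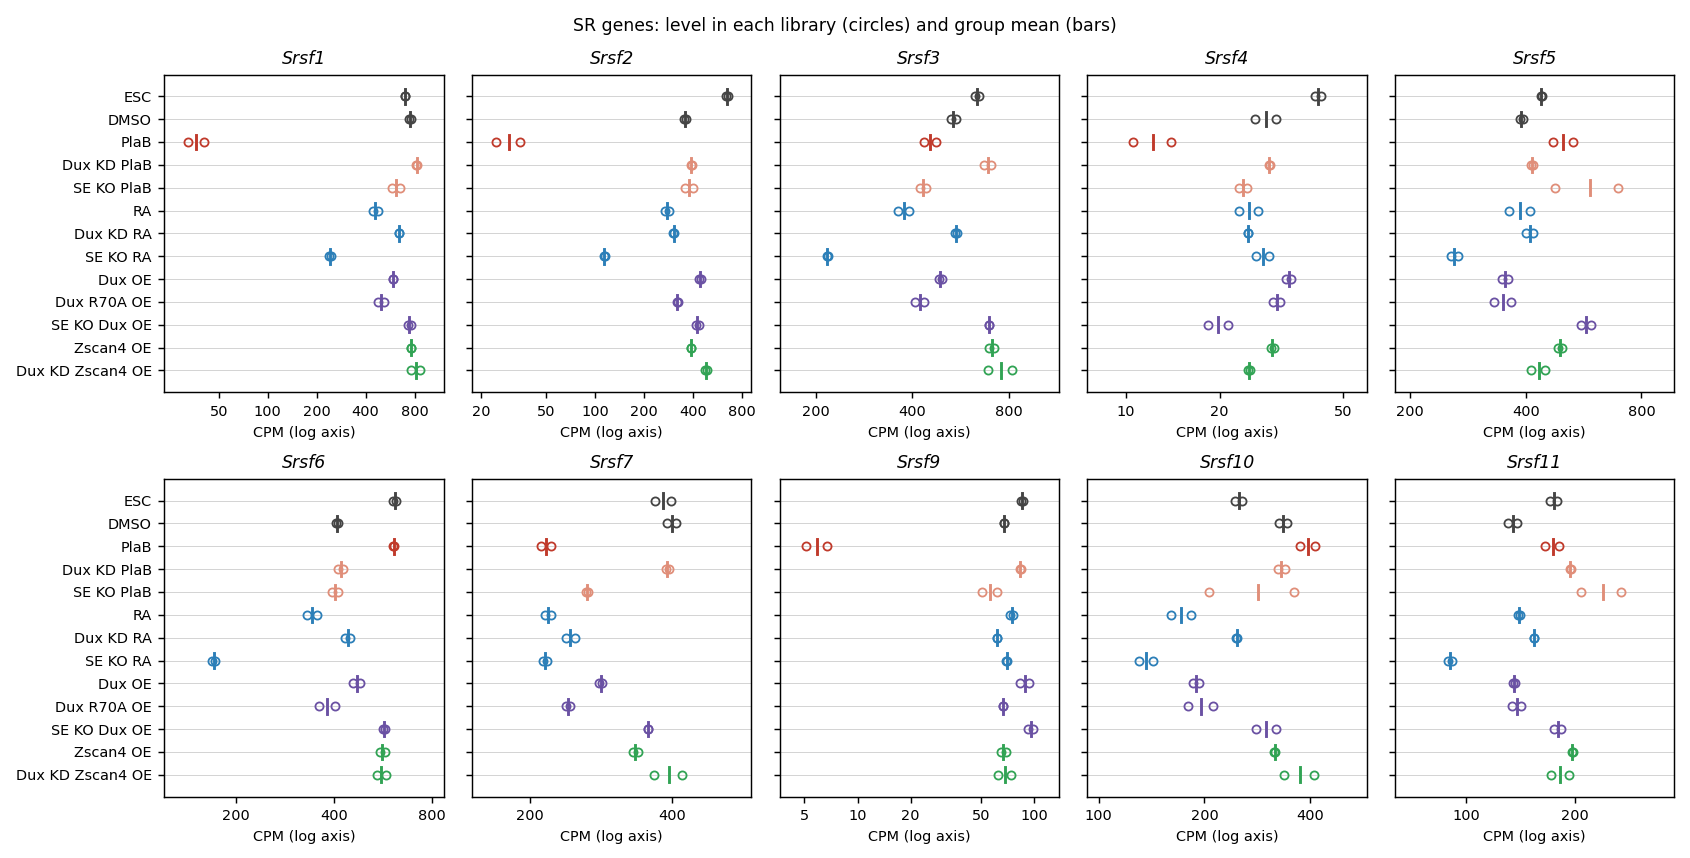
Level of each SR gene in every library (circles, CPM on log axes that differ between panels) and the mean of the 2 libraries (bars) for the 13 groups. In PlaB the circles of Srsf1, Srsf2, Srsf4 and Srsf9 lie below those of every other group, and in SE KO RA those of Srsf3, Srsf5, Srsf6, Srsf10 and Srsf11 do.

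The reads could not be assigned to isoforms, and part of 3 members is shared with genes on the opposite strand. GENCODE M21 lists 85 transcripts for the 10 members, of which 29 are protein coding, 15 are marked for NMD and 26 retain an intron, and the gene counts sum over all of them. Srsf2 (chromosome 11, 116849901 to 116853094, minus strand) shares 460 exon bases, 15.6% of its exons, with Mettl23 on the plus strand, which had 151 and 156 counts in DMSO and 922 and 1056 in PlaB. It shares a further 288 bases with Mfsd11, which had 226 and 216 counts in DMSO and 501 and 527 in PlaB. Srsf1 shares 98 exon bases with Gm11508 (0 to 16 counts over all libraries). Srsf4 shares 1532 exon bases, 43.0% of its exons, with Gm12992 (5 to 52 counts over all libraries). Whether strand was used in counting is not given in the sources used here, so reads in these stretches cannot be told apart. On the same strand, A930004J17Rik lay within the span of Srsf4 and Gm43362 within that of Srsf11, each with 0 shared exon bases. A930004J17Rik had 93 and 132 counts in DMSO and 245 and 204 in PlaB. Gm43362 had 3 and 4 counts in DMSO and 141 and 179 in PlaB.

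The longest coding transcripts of Srsf1, Srsf2 and Srsf9 have 4, 3 and 4 exons. That of Srsf11 has 13, and those of the remaining members have 6 or 8. Over the 2300 tested genes with 3 to 4 exons the median log2 fold change in PlaB against DMSO was 0.49 (quartiles -0.88 and 1.78). It was 0.37 (quartiles -0.99 and 1.52) over the 4028 genes with 5 to 8 exons. Over the 7797 genes with 9 or more exons it was -0.32 (quartiles -1.56 and 0.87).

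Per kilobase of exon, the only scale on which members were compared with each other, Srsf1 stood highest in DMSO at 132 ± 2.52 CPM per kb (SD, n = 2). It was followed by Srsf2 at 121 ± 2.27, Srsf7 at 112 ± 3.35, Srsf5 at 97.7 ± 1.55 and Srsf6 at 85.1 ± 0.989, and Srsf4 was lowest at 7.92 ± 0.877. No 2 neighbours in this order overlapped in DMSO. In PlaB the order was another: Srsf6 at 127 ± 1.16 and Srsf5 at 125 ± 10.6 overlapped at the top, Srsf7, Srsf3 and Srsf10 overlapped in turn at 61.1 to 56.3, and Srsf2, Srsf1, Srsf9 and Srsf4 formed the bottom at 10.1, 6.39, 3.57 and 3.43. The sum over the 10 members was 728 ± 14.2 CPM per kb in DMSO, 471 ± 21.3 in PlaB, 793 ± 7.93 in Dux KD PlaB and 705 ± 53.4 in SE KO PlaB. The size of the step from DMSO to PlaB depended on the scaling. Summed as CPM without division by length, the members stood at 3411 in DMSO and 2432 in PlaB. With library size only these sums were 3200 and 2726. The share of Srsf1 in the sum per kb was 18.2% ± 0.0081 in DMSO and 1.35% ± 0.15 in PlaB. For Srsf2 the share was 16.6% ± 0.0112 and 2.13% ± 0.419. Srsf6 made up 11.7% ± 0.0924 in DMSO and 26.9% ± 1.46 in PlaB, and Srsf5 13.4% ± 0.0494 and 26.6% ± 1.06. With 2 libraries against 2, an exact permutation test of such sums or shares cannot go below a two-sided p of 0.333, so none was made.

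**Figure D2:**
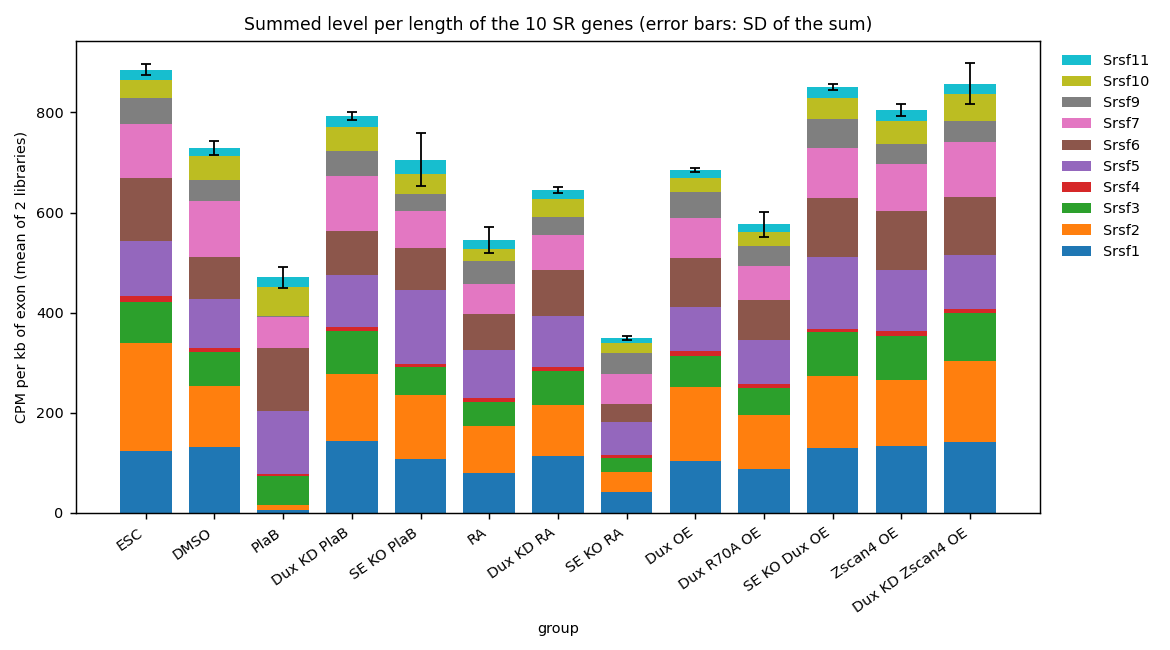
Sum over the 10 SR genes of the level per length (CPM per kb of exon, mean of 2 libraries, coloured by gene, error bars the SD of the sum) in the 13 groups. The sum is lowest in SE KO RA at 350 and next lowest in PlaB at 471, and the Srsf1 and Srsf2 segments nearly vanish in PlaB.

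Dux KD PlaB and SE KO PlaB were set against PlaB and against DMSO. No group held either modification alone under DMSO or without treatment, and no label names a control short hairpin RNA. Under PlaB and under RA, a difference present before treatment thus cannot be told apart from a changed response. With Dux knocked down, Srsf1 had 826 and 822 CPM, Srsf2 392 and 390 CPM, and Srsf9 83.7 and 83.1 CPM, all above both DMSO libraries. Against PlaB these were 22.6-fold, 13.1-fold and 14.1-fold higher (edgeR adjusted p = 1.45e-23, 1.68e-21 and 2.85e-20). Srsf4 (log2 fold change 1.24), Srsf7 (0.85) and Srsf3 (0.59) were higher as well, Srsf6 (-0.54) and Srsf5 (-0.27) were lower, and Srsf10 and Srsf11 did not pass. The Srsf5 call was lost without PlaB replicate 2 (-0.18, adjusted p = 0.232), without either Dux KD PlaB library (adjusted p = 0.0814 and 0.101) and without the filter on low counts (-0.12, adjusted p = 0.295). This made 6 members higher and 2 lower, where 35.5% of all genes were higher and 38.8% lower. Against DMSO, Dux KD PlaB left 3 members higher and 0 lower, with 17.7% of all genes higher and 17.1% lower. Those 3 were Srsf11 (log2 fold change 0.53, edgeR adjusted p = 3.63e-05), Srsf3 (0.35, 0.000678) and Srsf9 (0.31, 0.015), and none of the 10 was past 2-fold, against 7.53% of all genes higher and 4.14% lower by that much. The log2 fold changes of Srsf1 and Srsf2 were both 0.13 (SE 0.0832 and 0.0898). The Srsf9 call was lost with any 1 of the 4 libraries left out (adjusted p = 0.0631 to 0.0745). With ESC in place of DMSO all 3 calls were lost (adjusted p = 0.182 for Srsf11, 0.279 for Srsf3 and 0.814 for Srsf9), while Srsf2 (log2 fold change -0.72), Srsf6 (-0.55) and Srsf4 (-0.52) passed as lower and Srsf10 (0.40) and Srsf1 (0.24) as higher. The 2 comparisons share the Dux KD PlaB libraries, and that with DMSO shares its control with PlaB against DMSO.

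With the super-enhancer deleted, Srsf1 had 649 and 581 CPM, Srsf2 359 and 400 CPM, and Srsf9 50.8 and 61.8 CPM under PlaB. These were 16.9-fold, 12.7-fold and 9.54-fold higher than in PlaB (edgeR adjusted p = 1.5e-22, 2.72e-21 and 8.41e-19). Srsf4 (log2 fold change 0.96), Srsf11 (0.46) and Srsf7 (0.29) were also higher, and Srsf6 (-0.60) and Srsf10 (-0.48) were lower, so that 6 members were higher and 2 lower where 35.5% of all genes were higher and 36.5% lower. With RLE normalization Srsf7 lost its call (0.16, edgeR adjusted p = 0.0507) and Srsf3 passed as lower (-0.20, 0.0249). The Srsf10 call turned on single libraries: its log2 fold change against PlaB was -0.93 without SE KO PlaB replicate 1 and -0.13 (adjusted p = 0.29) without replicate 2, and the call was also lost without PlaB replicate 2 (adjusted p = 0.0526) and in a fit of the 2 groups alone (adjusted p = 0.121). Against DMSO, 4 members were lower, namely Srsf7 (log2 fold change -0.59), Srsf3 (-0.31), Srsf1 (-0.30) and Srsf9 (-0.26), and 2 were higher, namely Srsf11 (0.83) and Srsf5 (0.59). Of all genes, 26.5% were lower and 29.6% higher there. None of the 10 was past 2-fold, against 17.1% of all genes higher and 11.0% lower by that much. The Srsf1, Srsf3 and Srsf9 calls depended on the fit. All were lost with library size only (log2 fold changes -0.16, -0.18 and -0.13). They were also lost in the fit of the 2 groups alone (edgeR adjusted p = 0.0895, 0.0624 and 0.156). Srsf7, Srsf11 and Srsf5 kept their calls in both fits. Srsf9 failed with RLE normalization too (-0.23, adjusted p = 0.0501), as did Srsf1 with ESC as control (-0.19, adjusted p = 0.0678). The 2 SE KO PlaB libraries stood apart in Srsf5 (696 and 477 CPM), Srsf10 (361 and 206 CPM) and Srsf11 (268 and 208 CPM). Without replicate 1 the Srsf10 log2 fold change against DMSO was -0.70 (adjusted p = 4.34e-06) and without replicate 2 it was 0.11 (adjusted p = 0.415), and Srsf9 lost its call without replicate 1 (adjusted p = 0.371). In Srsf1, Srsf2 and Srsf9 both SE KO PlaB libraries lay above both PlaB libraries.

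Markers of the 2-cell-like state moved with these groups. The summed level of 6 such markers, among them Zscan4c and Zscan4d, was 3.02 to 5.05 CPM in DMSO, 7180 to 7250 in PlaB, 4.89 to 5.08 in Dux KD PlaB and 479 to 579 in SE KO PlaB. All 6 passed as higher in PlaB and in SE KO PlaB against DMSO, and 0 of 6 in Dux KD PlaB; Zfp352 was at 0 in both DMSO libraries. Of 6 pluripotency markers, 4 were lower in PlaB (Sox2, Esrrb, Nanog and Pou5f1) and 2 were higher, Dppa5a (log2 fold change 0.86) and Zfp42 (0.40). Of 6 primitive endoderm markers, 4 were higher in PlaB and Sox7 (-0.76) was lower, and in SE KO PlaB 5 were higher than in DMSO. The summed level of the pluripotency markers was 5890 to 5950 CPM in DMSO, 3970 to 4430 in PlaB, 4940 to 4950 in Dux KD PlaB and 3600 to 4140 in SE KO PlaB. That of the endoderm markers was 8.83 to 10.7 CPM in DMSO, 32.8 to 37.8 in PlaB, 25.8 to 27.6 in Dux KD PlaB and 127 to 136 in SE KO PlaB. The part of these shifts in the SR values was not tested. In bulk RNA, fewer cells of one kind and less RNA per cell cannot be told apart.

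**Figure D3:**
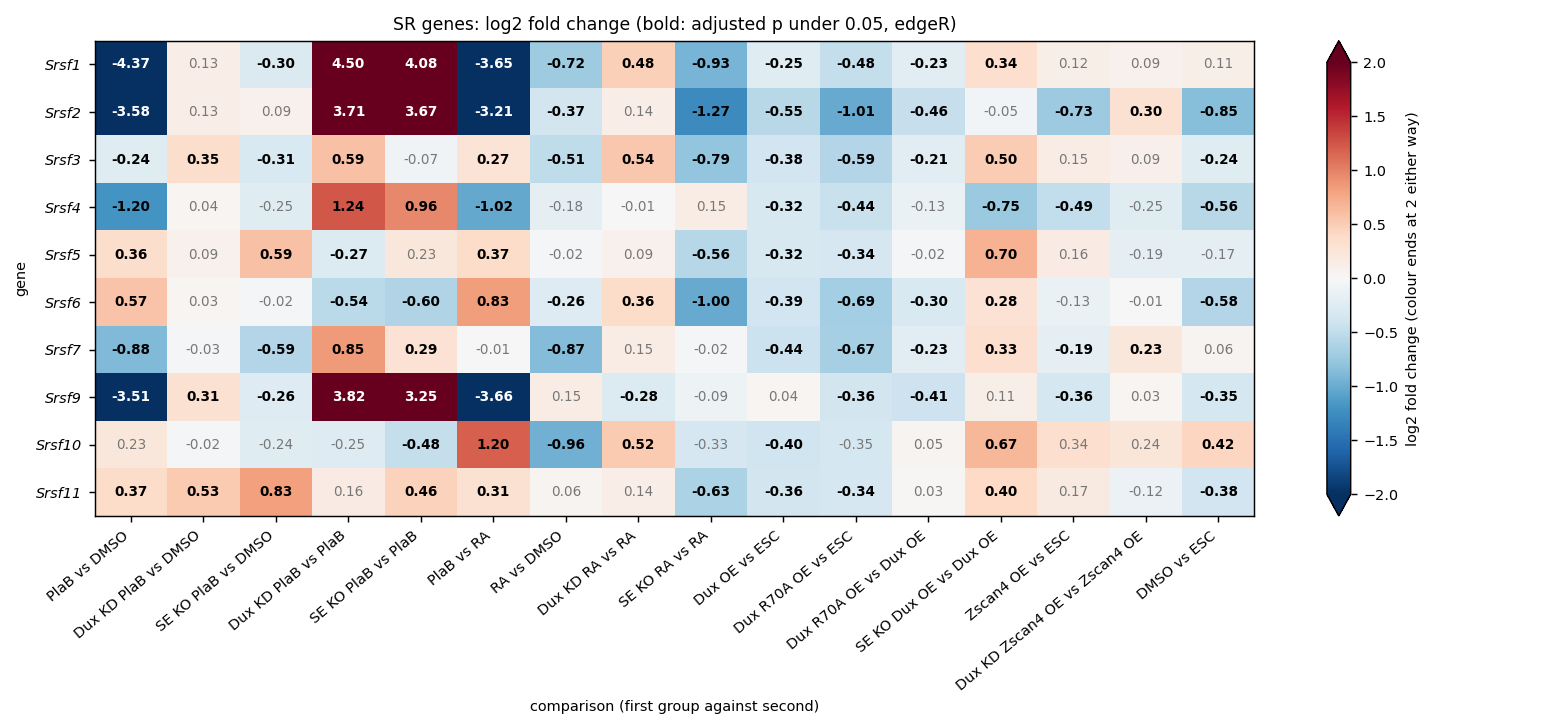
Log2 fold change of each SR gene (rows) in 16 comparisons (columns, first group against second), with values past an adjusted p of 0.05 in bold and the colour ending at 2 in either direction. Dark blue for Srsf1, Srsf2 and Srsf9 in PlaB against DMSO and in PlaB against RA, and dark red for the same genes in Dux KD PlaB and SE KO PlaB against PlaB, stand out from the paler remainder.

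Other regulators of the same machinery were counted in PlaB against DMSO for lists of their own, to be read against 35.4% of all genes lower and 41.7% higher. Of 25 hnRNP proteins, which often oppose SR proteins at exons, 23 were lower and 1 higher, with a median log2 fold change of -2.10. Hnrnpul2 (-4.93) and Hnrnpd (-4.86) were the lowest, below Srsf1, and Hnrnpk (0.37) was the 1 that rose. Of 10 NMD factors, which remove the poison-exon forms of SR transcripts, 9 were lower and 0 higher, with a median of -1.28. They included Upf1, the central helicase of the pathway (-2.81), and Smg5 (-2.19). Of 9 SR protein kinases and nuclear import factors 5 were higher and 4 lower. Srpk3 (4.05) and Clk4 (1.74), both kinases that phosphorylate SR proteins, were the highest, and the kinase Clk2 (-2.02) and the importin Tnpo1 (-1.77) the lowest. Srpk3 rested on few counts (SE 1.08). Of 19 SR-related proteins 6 were higher and 9 lower, from U2af2 (-2.90), which binds the polypyrimidine tract, and Srrm2 (-2.45), a scaffold of nuclear speckles, to Rbm25 (1.24) and Srsf12 (1.65). Of the 7 subunits of the SF3B complex, the target of the drug, 3 were higher and 3 lower, with Sf3b5 (2.15) and Phf5a (0.73) at one end and Sf3b6 (-0.70) and Sf3b1 (-0.63) at the other. In Dux KD PlaB against DMSO, no gene of these 5 lists passed with a 2-fold change.

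**Figure D4:**
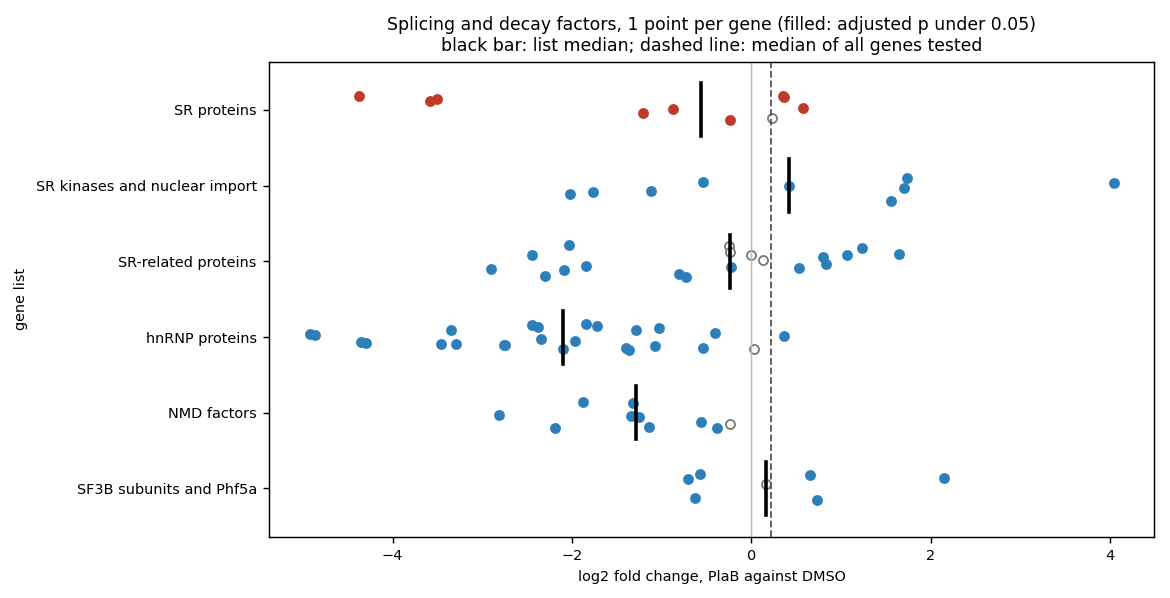
Log2 fold change in PlaB against DMSO for each gene of 6 lists of splicing and decay factors (1 point per gene, filled where the adjusted p is under 0.05), with the list median as a black bar and the median of all 20953 genes as a dashed line. The SR genes split into 3 points below -3 and 7 points between -1.20 and 0.57, while 21 of the 25 hnRNP points lie past 2-fold below 0.

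Retinoic acid left 6 members lower than in DMSO and 0 higher, where 26.6% of all genes were lower and 32.3% higher. Srsf10 had 184 and 161 CPM in RA against 345 and 326 CPM in DMSO (log2 fold change -0.96, edgeR adjusted p = 2.91e-06). Srsf7 (-0.87), Srsf1 (-0.72), Srsf3 (-0.51), Srsf2 (-0.37) and Srsf6 (-0.26) followed. None was past 2-fold, where 10.4% of all genes were lower and 20.6% higher by that much. With library size only, 4 members were lower and 2 higher: Srsf2 and Srsf6 lost their calls (adjusted p = 0.096 and 0.455), and Srsf9 (0.34, adjusted p = 0.00318) and Srsf11 (0.25, adjusted p = 0.0238) passed as higher. Srsf9, which fell by 3.51 on the log2 scale in PlaB, had a log2 fold change of 0.15 (adjusted p = 0.2) with 75.9 and 73.0 CPM in RA. Set directly against RA, PlaB was lower in Srsf9 (log2 fold change -3.66), Srsf1 (-3.65), Srsf2 (-3.21) and Srsf4 (-1.02) and higher in Srsf10 (1.20), Srsf6 (0.83), Srsf5 (0.37), Srsf11 (0.31) and Srsf3 (0.27), which makes 4 lower and 5 higher with 38.6% of all genes lower and 37.6% higher. Without the filter on low counts, Srsf11 (0.18, edgeR adjusted p = 0.122) and Srsf3 (0.14, edgeR adjusted p = 0.177) lost their calls in PlaB against RA. Without PlaB replicate 2 the Srsf5 log2 fold change there was 0.29. Treatment lasted 4 days with PlaB and 48 hours with RA, so agent and time cannot be told apart. Marker lists moved with RA too: all 6 markers of the 2-cell-like state were higher than in DMSO (466 to 536 against 3.02 to 5.05 CPM in sum), 5 of 6 endoderm markers were higher (83.3 to 86.6 against 8.83 to 10.7), and 5 of 6 pluripotency markers were lower (2990 in both libraries against 5890 to 5950). Their part in the SR values was not tested.

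In Dux KD RA, 4 members were higher than in RA and 1 was lower, with 18.0% of all genes higher and 19.2% lower. Srsf3 rose from 391 and 360 CPM to 542 and 549 CPM (log2 fold change 0.54, edgeR adjusted p = 4.06e-06), and Srsf10 (0.52), Srsf1 (0.48) and Srsf6 (0.36) rose as well. Srsf9 was lower at 61.8 and 61.2 CPM (log2 fold change -0.28, adjusted p = 0.0283), a call that was lost with any 1 of the 4 libraries left out (adjusted p = 0.0626 to 0.129) and with library size only (adjusted p = 0.0892). Without RA replicate 2 the number that passed was 3.

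In SE KO RA, 6 members were lower than in RA and 0 were higher, with 24.7% of all genes lower and 21.3% higher. Srsf2 had 114 and 115 CPM against 284 and 269 CPM in RA (log2 fold change -1.27, SE 0.0922, edgeR adjusted p = 1.78e-11). Srsf6 had 169 and 173 CPM against 355 and 331 CPM (log2 fold change -1.005, SE 0.0709, edgeR adjusted p = 1.13e-11). These 2 were past 2-fold, as were 11.0% of all genes in that direction and 6.57% in the other, and Srsf1 (-0.93), Srsf3 (-0.79), Srsf11 (-0.63) and Srsf5 (-0.56) were lower too. Srsf4 and Srsf9 had log2 fold changes of 0.15 and -0.09 and did not pass. SE KO RA held the lowest mean of all 13 groups for Srsf3, Srsf5, Srsf6, Srsf7, Srsf10 and Srsf11. For Srsf7 this rank was not separated, as SE KO RA (215 CPM), PlaB (217) and RA (219) overlapped in turn. Leaving out the library whose genotype field reads wild type left 6 members lower, with Srsf2 at -1.26 and Srsf6 at -0.98. The summed level of the 2-cell-like markers was 466 to 536 CPM in RA, 348 to 363 in Dux KD RA and 51 to 53.8 in SE KO RA, and its part in the SR values was not tested.

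The effect of each modification was then set against itself in the other treatment by an interaction term. The signed Dux KD effect was higher under PlaB than under RA for Srsf9, Srsf1, Srsf2, Srsf4 and Srsf7 and lower for Srsf6, Srsf10 and Srsf5, with 32.3% of all genes higher and 33.6% lower. The SE KO effect was higher under PlaB for 9 members, all but Srsf10, with 35.5% of all genes higher and 27.6% lower. Srsf7 among them lost its call with RLE normalization (0.18, edgeR adjusted p = 0.132). For Srsf1 the SE KO effect had opposite signs: it was 4.08 under PlaB and -0.93 under RA.

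Transgene groups were compared with untreated ESC. In Dux OE, 9 members were lower and 0 higher, where 12.8% of all genes were lower and 14.7% higher. Srsf2 had 445 and 433 CPM against 652 and 636 CPM in ESC (log2 fold change -0.55, edgeR adjusted p = 3.11e-05), Srsf7 280 and 284 CPM against 397 and 367 CPM (-0.44, 3.18e-05) and Srsf6 481 and 457 CPM against 621 and 607 CPM (-0.39, 0.000113). The others lay between -0.40 and -0.25, and Srsf9 (0.04) did not pass. No change was past 2-fold, against 2.12% of all genes lower and 7.38% higher by that much. With any 1 of the 4 libraries left out, 5 members passed, and with library size only 5 were lower. No group carried doxycycline without a transgene, so transgene and doxycycline cannot be told apart. With DMSO in place of ESC, Srsf9 (0.39, adjusted p = 0.00196), Srsf2 (0.30, adjusted p = 0.0079) and Srsf6 (0.20, adjusted p = 0.0238) were higher in Dux OE. The 2 control groups themselves differed in 7 members, of which 6 were lower in DMSO (22.4% of all genes) and Srsf10 was higher (21.2% of all genes). Among them, Srsf2 had a log2 fold change of -0.85 and Srsf6 of -0.58.

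In the libraries labelled Dux R70A OE, 9 members were lower than in ESC and 0 higher, with 23.0% of all genes lower and 21.6% higher. Srsf2 had 318 and 322 CPM (log2 fold change -1.01, edgeR adjusted p = 9.67e-10) and was past 2-fold, as were 6.72% of all genes lower and 10.2% higher, and Srsf10 (-0.35, adjusted p = 0.053) did not pass. With library size only 5 members were lower. With DMSO in place of ESC, Srsf2 did not pass (-0.16, edgeR adjusted p = 0.197). Srsf5 (-0.16, 0.275), Srsf6 (-0.10, 0.284), Srsf9 (-0.01, 0.963), Srsf4 (0.12, 0.486) and Srsf11 (0.04, 0.809) lost their calls too. Srsf10 passed as lower there (-0.78, 0.000174). Set against Dux OE, these libraries were lower in 6 members (21.4% of all genes) and higher in 0 (17.3%), from Srsf2 (-0.46) and Srsf9 (-0.41) to Srsf3 (-0.21), and that number was 3 without Dux R70A OE replicate 1 or without Dux OE replicate 2. The 2-cell-like markers summed to 3210 to 3300 CPM in Dux OE, 0.44 to 0.537 in the libraries labelled Dux R70A OE and 19.1 to 22.3 in ESC.

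In SE KO Dux OE, 7 members were higher than in Dux OE (11.5% of all genes) and Srsf4 was lower (14.0% of all genes). Srsf5 had 593 and 556 CPM against 359 and 347 CPM (log2 fold change 0.70, edgeR adjusted p = 3.33e-05), Srsf10 320 and 281 CPM against 186 and 193 CPM (0.67, 0.00137) and Srsf3 692 and 691 CPM against 494 and 483 CPM (0.50, 3.03e-05). Srsf4 had 21.3 and 18.4 CPM against 34.0 and 32.7 CPM (-0.75, 3.15e-05), and Srsf2 and Srsf9 did not pass. Fibroblast markers moved with this comparison: all 5 tested of a list of 6 were higher in SE KO Dux OE, their sum was 116 to 117 CPM against 44.5 to 47.2 in Dux OE, and Postn and Lum were at 0 in Dux OE. All 6 markers of the 2-cell-like state were lower, 5 of them past 2-fold, with a sum of 1330 to 1540 CPM against 3210 to 3300. Their part in the SR values was not tested.

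In Zscan4 OE, 4 members were lower than in ESC (19.6% of all genes) and 0 were higher (18.9%). They were Srsf2 (log2 fold change -0.73), Srsf4 (-0.49), Srsf9 (-0.36) and Srsf7 (-0.19). That number was 2 without Zscan4 OE replicate 2. The direction depended on the scaling and the control. With library size only 2 members were lower and 5 higher, namely Srsf10 (0.50, adjusted p = 0.0141), Srsf11 (0.33, 0.00667), Srsf5 (0.32, 0.0393), Srsf3 (0.31, 0.00208) and Srsf1 (0.28, 0.013). With DMSO in place of ESC, the log2 fold changes of Srsf2 and Srsf4 were 0.12 (adjusted p = 0.308) and 0.07 (adjusted p = 0.688), and Srsf11 (0.55, 1.93e-05), Srsf6 (0.46, 8.82e-06), Srsf3 (0.40, 0.00019) and Srsf5 (0.33, 0.0168) passed as higher. The libraries labelled Dux KD Zscan4 OE were higher than Zscan4 OE in Srsf2 (0.30, adjusted p = 0.011) and Srsf7 (0.23, adjusted p = 0.0125), with 16.0% of all genes higher, and 0 members were lower (16.7%). Without Dux KD Zscan4 OE replicate 2 or Zscan4 OE replicate 1 the number was 1, and without Zscan4 OE replicate 2 it was 0.

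Across all 13 groups Srsf1 rose from 36.5 ± 5.67 CPM (SD, n = 2) in PlaB, through 242 ± 4.61 in SE KO RA and 459 ± 20.5 in RA, to 824 ± 3.13 in Dux KD PlaB. Dux R70A OE (501), Dux OE (588), SE KO PlaB (615), Dux KD RA (642), ESC (700), SE KO Dux OE (745), DMSO (755), Zscan4 OE (761) and Dux KD Zscan4 OE (811) lay between. The lowest 4 means were separated from their neighbours, whereas the 5 from SE KO Dux OE upward overlapped in turn, as did Dux OE, SE KO PlaB and Dux KD RA. Srsf2 had the same 3 groups at the bottom, PlaB at 29.8 ± 7.17, SE KO RA at 114 ± 0.736 and RA at 277 ± 10.8, and ESC at the top at 644 ± 11. Srsf9 was at 5.91 ± 1.17 in PlaB and between 56.3 and 95.4 in the other 12 groups, with most neighbours overlapping. Srsf6 ran from 171 ± 2.73 in SE KO RA to 609 ± 5.57 in PlaB and 614 ± 9.87 in ESC, and the last 2 overlapped. The highest group mean was 22.6-fold the lowest for Srsf1, 21.6-fold for Srsf2 and 16.2-fold for Srsf9, and between 1.85-fold (Srsf7) and 3.59-fold (Srsf6) for the other 7 members. Srsf4 was highest in ESC, Srsf7 in DMSO, Srsf10 in PlaB, Srsf5 and Srsf11 in SE KO PlaB and Srsf3 in Dux KD Zscan4 OE. For Srsf4 and Srsf11 the highest group was separated from the next, and for Srsf7, Srsf10, Srsf5 and Srsf3 it overlapped the next. The Srsf5 rank rested on 1 SE KO PlaB library, at 696 CPM against 477 in the other.

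Over the 13 group means, Srsf1 and Srsf2 had a Pearson correlation of 0.966, and 0.87 over the 12 groups without PlaB. Srsf1 and Srsf9 had 0.913 with PlaB and 0.157 without it, so that this pair went together through the PlaB group. The reverse held for Srsf1 and Srsf6, at 0.0652 with PlaB and 0.899 without, and for Srsf1 and Srsf3, at 0.465 and 0.963. Over all 45 pairs of members the median was 0.465, and 0.683 without PlaB. These are descriptions of group means that share a library scaling and, in part, a cell line and treatment. The genes whose group means went most closely with the mean of the 10 members, among 7972 genes of an average log2 CPM of at least 4, were Rrs1 (Pearson r = 0.979), Syncrip (0.978), Ddx21 (0.978), Cdk11b (0.975) and Yars2 (0.975), over 13 groups.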

How the data were processed

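R1 mESC libraries (poly(A)-selected RNA, NEBNext Ultra II kit) were sequenced by the authors. The submitters' processing notes name FastQC, Trimmomatic, STAR, featureCounts, DESeq2 and the mm10 genome, with no versions. The deposited table holds raw read counts per gene for 26 libraries, with 14401452 to 39402840 counts each. The strand setting and the handling of multi-mapped and shared reads are not given in the sources used here. Of the 53292 table genes named in GENCODE M21, 99.2% had the same start and end.

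Libraries were grouped by their titles. Genes were filtered with filterByExpr, scaled by TMM and fitted in 1 edgeR 4.0.16 quasi-likelihood model (R 4.3.3) over 13 groups, as the spread was to be shared. There were 16 comparisons and 2 interaction terms, with Benjamini-Hochberg adjustment over 20953 genes within each and a prior count of 0.125. The SE is the absolute log2 fold change divided by the square root of the F statistic. CPM relate a count to the TMM-scaled library size, and per-length values divide by the exon length in kilobases. The floor of 3 counts was 0.0796 to 0.226 CPM and covers counting error only. Alternatives were DESeq2 1.42.0, RLE, library size only, no filter, only the 2 groups, the other control group, a 2-fold rule, a replicate block and leaving out each library. The fit was tested on simulated data.

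The members and the gene lists were chosen with earlier results of these data known. All 10 members are named throughout. Of every other list, the 2 highest and 2 lowest genes that passed in PlaB against DMSO are named (for the NMD factors the 2 lowest, as none rose), with genes that overlap a member, the 5 genes most like the family mean, and markers.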

Additional observations from a re-analysis of the deposited data

Results flagged for a closer look

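The effect of a modification under PlaB differed from its effect under RA, by an interaction term in edgeR, in 17 cases. Values are the effect under PlaB minus that under RA on the log2 scale, with edgeR adjusted p, and each rests on 8 libraries. For the Dux KD effect they were 4.10 for Srsf9 (adjusted p = 3.34e-18), 4.01 for Srsf1 (5.85e-20), 3.58 for Srsf2 (2.12e-18), 1.25 for Srsf4 (2.73e-07) and 0.69 for Srsf7 (9.56e-07). They were -0.90 for Srsf6 (6.71e-09), -0.77 for Srsf10 (0.00188) and -0.36 for Srsf5 (0.0432). The Srsf5 call was lost without any 1 of 6 of the 8 libraries (adjusted p = 0.0629 to 0.188) and without the filter on low counts (-0.18, adjusted p = 0.28).

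For the SE KO effect they were 5.00 for Srsf1 (adjusted p = 1.1e-21), 4.94 for Srsf2 (5.95e-21), 3.35 for Srsf9 (1.98e-16) and 1.09 for Srsf11 (1.65e-08). They were 0.81 for Srsf4 (0.000125), 0.80 for Srsf5 (5.42e-05), 0.71 for Srsf3 (2.13e-06), 0.41 for Srsf6 (0.000747) and 0.31 for Srsf7 (0.0096). The Srsf7 call was lost with RLE normalization (0.18, edgeR adjusted p = 0.132). In Srsf1 and Srsf2 both SE KO libraries were above both wild-type libraries under PlaB and below both under RA. The 2 interactions share the PlaB and RA libraries, and PlaB and RA also differ in the length of treatment.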

How the results depend on the processing

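Groups of 2 libraries limit these results: some calls of changes under 2-fold were lost when 1 library was left out. The falls of Srsf1, Srsf2, Srsf9, Srsf4 and Srsf7 in PlaB against DMSO passed under every alternative fit and with each library left out, though Srsf7 was under 2-fold. With DMSO kept as the control, Srsf1 ranged from -4.54 to -4.11, Srsf2 from -3.85 to -3.32 and Srsf9 from -3.72 to -3.25. The replicate numbers did not pair the libraries (correlations of same-numbered deviations from -0.0473 to 0.0237), and adding the replicate block changed the call of 0 of 180 values, with Srsf1 in PlaB against DMSO at -4.37. Where an alternative moved a value, the cause was not tested, except that the 2-fold rule is stricter by construction. In the fits of only the 2 groups, 20 of 160 values gained a call and 5 lost one.

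With a 2-fold change also required, the number of members that passed was 4 for PlaB against DMSO, 4 for Dux KD PlaB against PlaB, 3 for SE KO PlaB against PlaB, 5 for PlaB against RA, 2 for SE KO RA against RA, 1 for Dux R70A OE against ESC, 4 and 4 for the interactions, and 0 for the other 10 comparisons. Of the 20953 genes tested, 5468 were higher and 6041 lower by that rule in Dux KD PlaB against PlaB. In SE KO PlaB against PlaB these numbers were 5429 and 5475, and in PlaB against RA 5838 and 6290. They were 5349 and 5580 for the Dux KD interaction and 5938 and 4330 for the SE KO interaction. The member counts are to be read against these, and the counts of 0 are not read as results about the members. With untreated ESC as control, 5 members passed at an adjusted p under 0.05 in Dux KD PlaB (2 higher, 3 lower). The direction turned for Srsf6 (-0.0104) and Srsf11 (-0.00873) in PlaB, for Srsf2 (-0.72), Srsf4 (-0.52), Srsf6 (-0.55), Srsf9 (-0.0372) and Srsf10 (0.40) in Dux KD PlaB, for Srsf2 (-0.76) in SE KO PlaB and for Srsf11 (-0.32) in RA. With DMSO as control, Dux R70A OE had 4. The direction turned for Srsf2 (0.30), Srsf4 (0.24), Srsf6 (0.20) and Srsf11 (0.0117) in Dux OE, for Srsf4 (0.12) and Srsf11 (0.0372) in Dux R70A OE, and for Srsf2 (0.124), Srsf4 (0.0699) and Srsf6 (0.46) in Zscan4 OE.

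With library size only, 5 members passed in Dux OE, 5 in Dux R70A OE, 1 in Dux R70A OE against Dux OE, 7 in Zscan4 OE against ESC (5 higher, 2 lower) and 1 in Dux KD Zscan4 OE against Zscan4 OE, and Srsf3 in PlaB against DMSO turned to 0.0199. Without the low-count filter, Dux R70A OE against Dux OE had 3. With only the 2 groups in the fit, Dux KD PlaB against DMSO had 6, SE KO PlaB against DMSO 3, Dux KD RA against RA 8, Zscan4 OE against ESC 10 and Dux KD Zscan4 OE against Zscan4 OE 1. The share of all genes that passed was not worked out for any alternative fit or control. The member counts under these settings therefore have no background beside them and are not results about the members. Leaving out 1 library gave 5 to 5 for Dux OE, 2 to 4 for Zscan4 OE, 3 to 5 for Dux R70A OE against Dux OE, 3 to 4 for Dux KD RA and 0 to 3 for Dux KD Zscan4 OE; a group left with 1 library was taken to vary like the others. Srsf10 in PlaB against DMSO passed with RLE, DESeq2, library size only and the fit of 2 groups. DESeq2 changed the call of 5 of 180 values.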
